A study of Mus musculus with 18 samples.

Results

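MicroRNA signal in the liver of mice given benzo(a)pyrene (BaP) at 50 mg/kg/day was compared with that of mice given only the olive oil vehicle. The comparison took every array labelled 50 mg/kg (5 arrays) and every array labelled 0 mg/kg (3 arrays), which are 8 of the 18 arrays of the study, the other 10 being divided equally between 25 and 75 mg/kg/day. All 8 animals were male Muta™Mouse (transgenic strain 40.6), a mouse that carries a bacterial lacZ reporter in all its cells for scoring mutations. They were 25 weeks old per the labels, were dosed daily by gavage for 28 days and were killed 3 days after the last dose, so the signal is that of a liver after a short recovery. Each array held the RNA of 1 animal, and further vehicle animals of the study are not analysed here. Of 566 mouse miRNA names on the array, 68 were present in at least 1 dose group and were tested, together with 1 viral name that counts only in the adjustment of P. The remaining 498 names were too dim to test.

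BaP is a polycyclic aromatic hydrocarbon that liver enzymes oxidise to a diol epoxide, which binds to guanine in DNA. DNA damage stabilises p53, and p53 binds the promoter of the miR-34a gene and raises its transcription. Mature miRNAs are short RNAs that guide Argonaute proteins to messenger RNAs, mainly through the seed, bases 2 to 8 counted from the 5′ end, and miRNAs with the same seed are grouped as a family. miR-34a lowers the messages of several cell cycle and survival proteins, while the let-7 family is abundant in differentiated tissue and restrains growth genes.

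The mature sequences of 59 of the 68 names were found in RefSeq (GRCm38.p6), through the current name of the arm that each older array name stands for. In the sequences the capitals mark the seed. The sequence of miR-34a is shown because this miRNA had the largest change, and that of miR-34b-5p because it carries the same seed.
miR-34a: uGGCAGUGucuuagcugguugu
miR-34b-5p: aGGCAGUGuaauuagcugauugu
Mature miR-34a lies at chr4:150068473-150068494 on the plus strand, within the gene Mir34a, and no other of the 59 matched names shared its seed. The let-7 members are shown because let-7c was the other miRNA to pass the test and differs from its relatives by few bases.
let-7a: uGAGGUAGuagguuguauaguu
let-7b: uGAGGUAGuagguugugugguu
let-7c: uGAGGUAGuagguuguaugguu
let-7d: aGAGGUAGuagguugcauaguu
let-7e: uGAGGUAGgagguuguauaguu
let-7f: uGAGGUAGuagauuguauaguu
let-7g: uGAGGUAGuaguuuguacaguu
let-7i: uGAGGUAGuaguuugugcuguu
miR-98: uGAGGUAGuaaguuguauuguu
Counted from the 5′ end, let-7a differs from let-7c by G19A and let-7b by A17G, each a single base. The other members differ from let-7c at 2 to 4 bases, so an array probe for one member may also bind others. The remaining sequences are those of names with an unadjusted P under 0.05, with miR-26a added as the partner of miR-26b, and miR-15b and miR-16 as partners of miR-322.
miR-26b: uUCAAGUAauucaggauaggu
miR-26a: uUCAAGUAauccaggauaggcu
miR-148a: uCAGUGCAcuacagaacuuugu
miR-199a-3p: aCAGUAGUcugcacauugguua
miR-125b-5p: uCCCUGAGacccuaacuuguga
miR-10a: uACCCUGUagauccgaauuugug
miR-7a: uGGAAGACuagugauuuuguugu
miR-24: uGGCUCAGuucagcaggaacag
miR-322: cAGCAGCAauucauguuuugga
miR-15b: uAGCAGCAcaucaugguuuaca
miR-16: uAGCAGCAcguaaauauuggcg
No sequence is shown for miR-720. The seeds of miR-26a and miR-26b are the same, as are those of miR-322, miR-15b and miR-16.

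The arrays came from 3 slides. Slide 1 held 1 vehicle array and 2 arrays at 50 mg/kg/day, slide 2 held 2 arrays at 50 mg/kg/day and no vehicle, and slide 3 held 2 vehicle arrays and 1 at 50 mg/kg/day. Slide explained 61.5% of the variance over the 18 arrays and was a block in the comparison. The 2 arrays of slide 2 are tied to the rest through the 75 mg/kg/day arrays, which were on every slide. The scanner software detected 80 to 114 mouse names on the vehicle arrays (97.0 ± 17.0, SD, n = 3) and 79 to 111 on the arrays at 50 mg/kg/day (96.2 ± 12.6, SD, n = 5). Correlations across names between the 8 arrays lay between 0.955 and 0.998, no spot was saturated and no pair of arrays was identical. The number of arrays limits the precision.

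At 50 mg/kg/day miR-34a was higher and let-7c lower than in vehicle livers, and no other miRNA passed the test. These are 2 of 69 names, or 2.9%, at an adjusted P under 0.05 (limma, slide as a block, Benjamini-Hochberg over all 69). Only miR-34a also changed over 1.5-fold. A total of 66 of the 68 mouse names, or 97.1%, differed by less than 1.2-fold, the exceptions being miR-34a and miR-26b. The 95% confidence interval lay within 1.5-fold in either direction for 65 names, and the 3 exceptions were miR-34a, miR-451 and miR-1224.

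**Figure D1:**
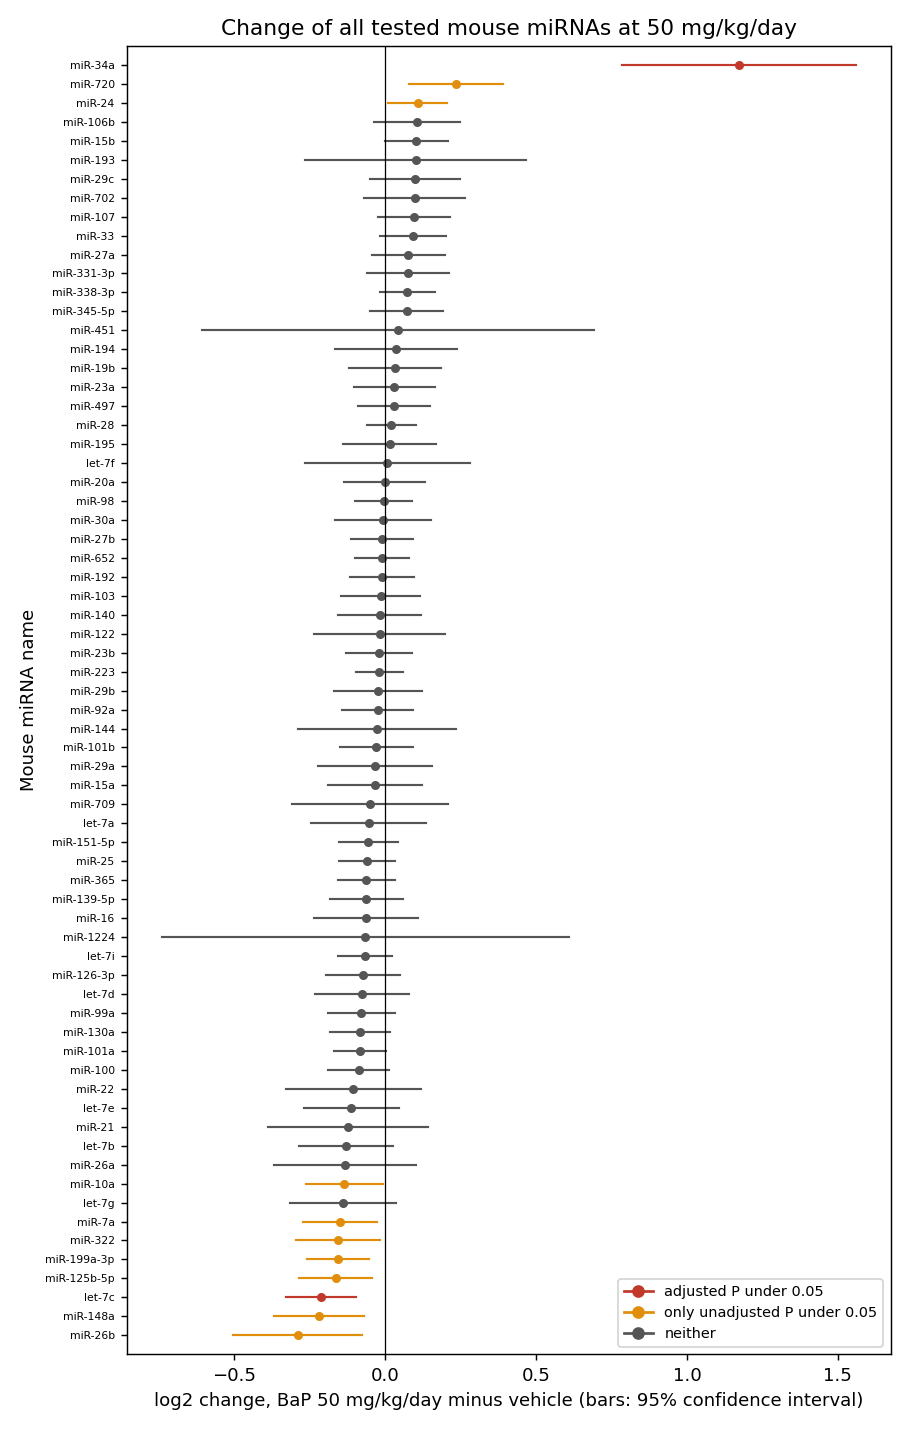
The log2 change between 50 mg/kg/day and vehicle (x axis) is plotted for each of the 68 tested mouse miRNAs (y axis), with bars for the 95% confidence interval of the slide-blocked fit. miR-34a stands at 1.17, and all other points lie between -0.29 and 0.23.

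The normalised log2 signal of miR-34a, the mean of its 2 probes, was 5.64, 5.89 and 6.23 on the vehicle arrays. It was 7.18, 6.67, 6.92, 6.93 and 6.90 on the arrays at 50 mg/kg/day. Every array at 50 mg/kg/day (6.92 ± 0.18, SD, n = 5) thus lay above every vehicle array (5.92 ± 0.29, SD, n = 3). These spreads include slide. With the fitted slide effects subtracted, the vehicle arrays ran from 5.55 to 5.89 and the dosed arrays from 6.56 to 7.18, so the dosed arrays were not the closer set. The measured, slide-blocked log2 change was 1.17 ± 0.18 (SE), or 2.25-fold, with a 95% confidence interval of 0.79 to 1.56 on the log2 scale (limma, adjusted P = 0.000714). These values average a probe that was below the background limit on all 3 vehicle arrays with one below it on 1 of the 3, so they are not an exact fold of the RNA. Groups that did not overlap were found for 8 of the 69 names, or 11.6%, so the absence of overlap was not particular to miR-34a. Apart from miR-34a, miR-24 and miR-720 lay wholly above the vehicle arrays, while let-7d, miR-148a, miR-199a-3p, miR-26a and miR-7a lay wholly below them. These comparisons left slide in, and which names separated depended in part on it. With the fitted slide effects subtracted, let-7d overlapped, with vehicle from 7.84 and 50 mg/kg/day up to 7.92. miR-26a overlapped too, with vehicle from 6.63 and 50 mg/kg/day up to 6.71. let-7c, among others, then separated, with vehicle from 8.30 and 50 mg/kg/day up to 8.245.

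The higher signal of miR-34a was present within both slides that held vehicle. The log2 difference was 1.29 on slide 1 and 0.84 on slide 3, and each of the 3 arrays at 50 mg/kg/day that shared a slide with vehicle lay above every vehicle array of that slide. The arrays of slide 2, for which there was no vehicle, had 6.92 and 6.93, between the 2 arrays of slide 1. An exact two-sided permutation test of the group difference over the 8 arrays, with slide ignored, gave P = 0.0179, the smallest that 56 arrangements allow. Permuting only within slides gave an exact P = 0.111, the smallest that 9 arrangements allow, so this test cannot reach 0.05.

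**Figure D2:**
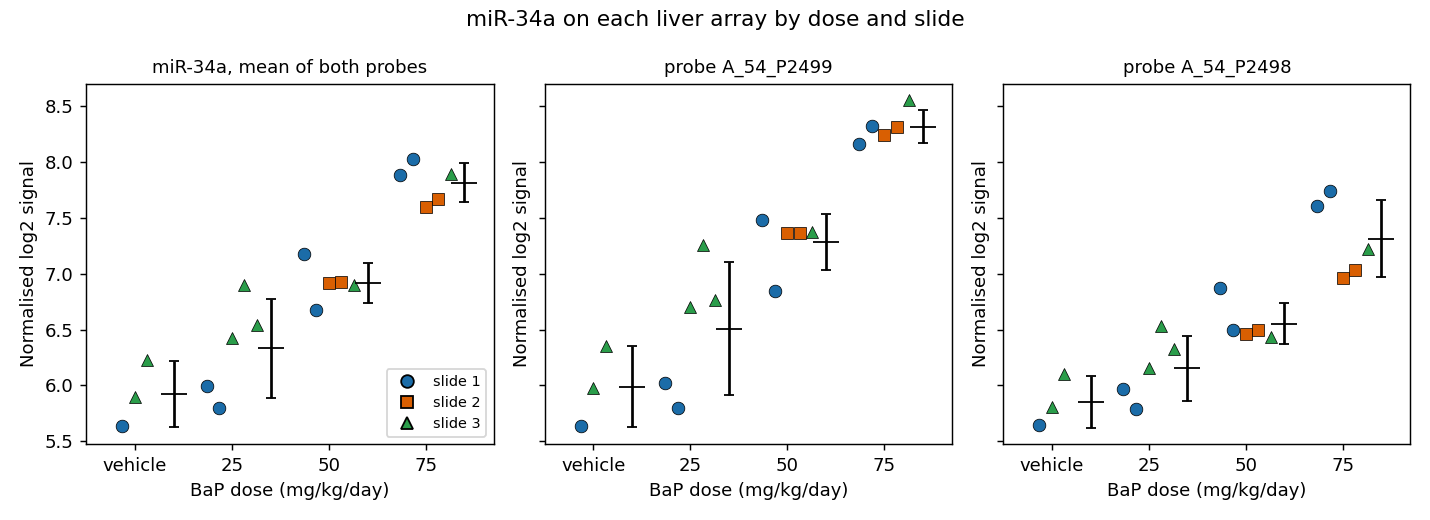
Normalised log2 signal (y axis) of miR-34a and of each of its 2 probes on all 18 arrays, by BaP dose (x axis); point shape and colour give the slide, and the bar beside each group is the mean with its SD. The arrays at 50 mg/kg/day, between 6.67 and 7.18 for the mean of both probes, lie above all 3 vehicle arrays and below all 5 arrays at 75 mg/kg/day.

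Both probes of miR-34a were higher at 50 mg/kg/day, by different amounts. Probe A_54_P2499 was well above background on 2 of 3 vehicle arrays and on 5 of 5 dosed arrays. Its signal was 5.64, 5.98 and 6.36 in vehicle and 7.48, 6.84, 7.37, 7.36 and 7.38 at 50 mg/kg/day, a log2 change of 1.48 ± 0.19 (SE). Probe A_54_P2498 was not well above background on any vehicle array and was on 5 of 5 dosed arrays. It gave 5.64, 5.81 and 6.10 in vehicle and 6.87, 6.50, 6.46, 6.49 and 6.43 at 50 mg/kg/day, so that the groups did not overlap for either probe. Its measured, slide-blocked log2 change was 0.86 ± 0.18 (SE, limma, adjusted P = 0.0155 over 112 probes). Since its vehicle level is only a bound, its signal was at least 1.53-fold higher, a difference of group means with slide left in that was not itself tested. For this bound, each vehicle array was given the probe's measured signal or the dimmest signal still well above background on that array, whichever was greater.

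Background was not subtracted from these signals, which shrinks the change of a dim miRNA. With the background-subtracted processed signal the log2 change of miR-34a was 2.81 (limma, adjusted P = 7.59e-05), and with the software's total gene signal it was 3.59 (adjusted P = 8.71e-05). In both of these, values under a floor were raised to it. For the total gene signal the floor was the lowest value of any detected name. miR-34a was detected on all 3 vehicle arrays, so none of its values there was raised. The direction and the call did not depend on the choice of signal, but the fold did.

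The level of miR-34a at 50 mg/kg/day lay between those of the neighbouring doses. It was 6.33 ± 0.44 (SD, n = 5) at 25 mg/kg/day and 7.82 ± 0.18 (SD, n = 5) at 75 mg/kg/day. The array values at 25 mg/kg/day ranged from 5.79 to 6.90 and overlapped both vehicle and 50 mg/kg/day, whereas those at 75 mg/kg/day began at 7.60, above all arrays at 50 mg/kg/day. From 25 to 50 mg/kg/day the log2 change was 0.74 ± 0.16 (SE, limma, adjusted P = 0.0220), and miR-34a was the 1 name of 69 (1.45%) to pass. Within slides this step was 1.03 on slide 1 and 0.28 on slide 3, and its adjusted P rose to 0.0610, 0.121 and 0.107 without 25 mg/kg/day array 1, 25 mg/kg/day array 2 and 50 mg/kg/day array 1, respectively. From 50 to 75 mg/kg/day the log2 change was 0.90 ± 0.14 (SE, adjusted P = 0.00109), again the 1 name of 69 (1.45%) to pass. This step was 1.03, 0.71 and 0.99 on slides 1, 2 and 3. Against the same 3 vehicle arrays, the log2 change was 0.43 at the lowest dose, 1.17 at the middle dose and 2.07 at the highest. The change at the lowest dose, 0.43 ± 0.17 (SE), did not pass (limma, adjusted P = 0.378).

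The other members of the miR-34 family are made from a separate locus and are also raised by p53 in some tissues. The names miR-34b-5p, miR-34b-3p, miR-34c and miR-34c* had 2 probes each, and none was present on any of the 18 arrays. No level or change is given for them.

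The only miRNA to pass in the other direction was let-7c, at a change far smaller than that of miR-34a. Its signal was 8.47, 8.16 and 8.04 on the vehicle arrays and 8.18, 8.18, 7.86, 7.84 and 7.98 at 50 mg/kg/day. The groups overlapped, because both dosed arrays of slide 1 were brighter than both vehicle arrays of slide 3. Vehicle array 1, also on slide 1, lay above every dosed array. The log2 change was -0.21 ± 0.05 (SE), a 1.16-fold lower signal (limma, adjusted P = 0.0458). Within slides the difference was -0.29 on slide 1 and -0.11 on slide 3, and all 3 dosed arrays that shared a slide with vehicle lay below every vehicle array there. The exact permutation test gave P = 0.179 with slide ignored and 0.111, the smallest possible, within slides. Its probes gave -0.17 ± 0.06 and -0.25 ± 0.06 (SE), and the latter passed over 112 probes (adjusted P = 0.0289).

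The call for let-7c depended on the processing, the direction did not. Of 15 other ways of processing, 1 kept let-7c past the threshold, and its log2 change ranged from -0.57 to -0.04. Without vehicle array 1 the change was -0.16 (limma, adjusted P = 0.458), and leaving out single arrays kept the call in 6 of 18 cases.

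**Figure D3:**
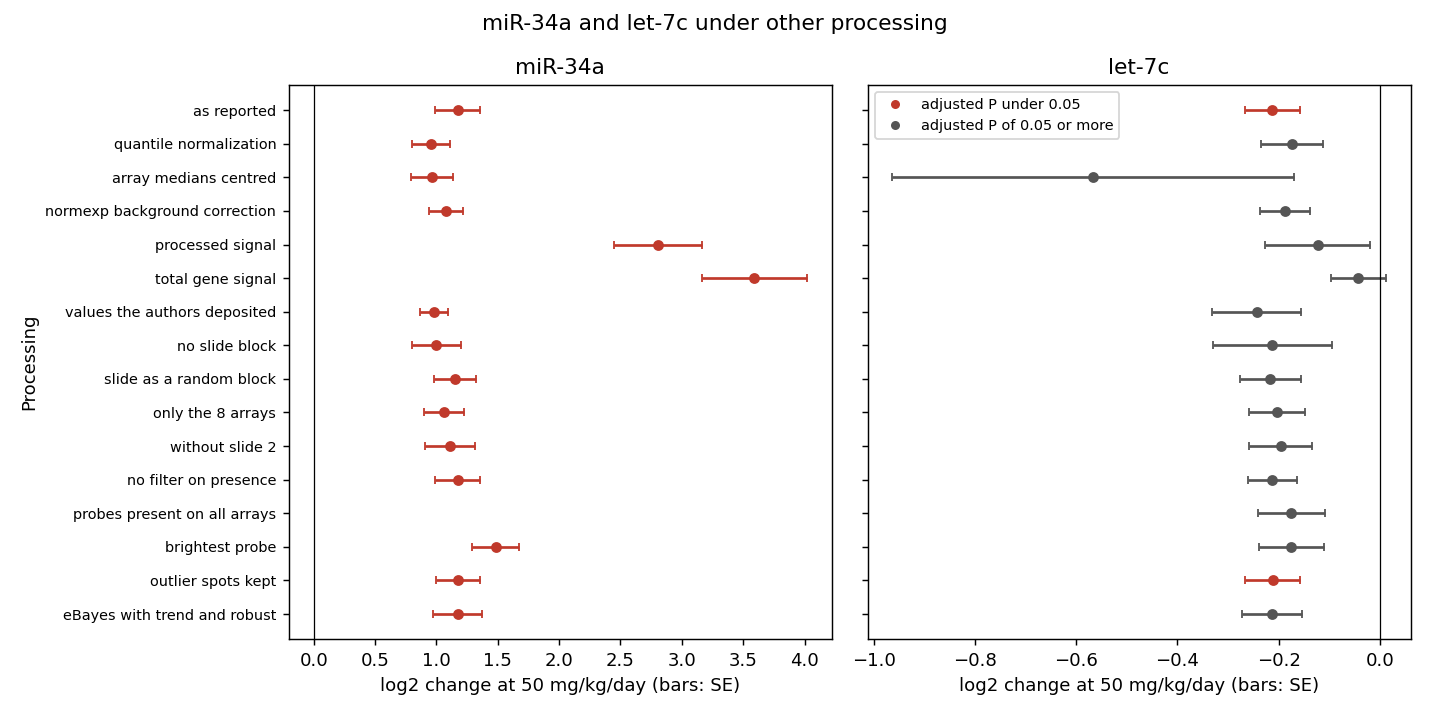
Log2 change of miR-34a (left) and let-7c (right) at 50 mg/kg/day against vehicle (x axes, bars are SE) under each way of processing (y axis); red points have an adjusted P under 0.05. miR-34a passes wherever it could be tested, between 0.95 and 3.59, whereas let-7c passes only as reported and with outlier spots kept; miR-34a has no point for probes present on all arrays, since neither of its probes was.

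All 9 names of the let-7 family were tested, and let-7c was the 1 that passed, or 1 of 9 against 2.9% of all names tested. The changes of 8 were negative and that of let-7f was 0.01, with a family median of -0.08 against -0.03 over all 68 mouse names. Of those 68, 46 were negative. The median of the family was positive, at 0.02 and 0.11, with the processed signal and the total gene signal, though it lay below the median of all names under each of the 15 other ways of processing. let-7b, a single base from let-7c, had -0.13 ± 0.07 (SE), and let-7a, likewise a single base away, had -0.06 ± 0.09. let-7g had -0.14 ± 0.08, but -0.34 on slide 1 and 0.09 on slide 3. None of let-7a, let-7b and let-7g passed the test, and cross-binding between members cannot be told apart from a shared change.

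A further 9 mouse names had an unadjusted P under 0.05 without passing after adjustment. With miR-34a and let-7c they make 11 of the 69 names, or 15.9%, of which 3 were higher and 8 lower at 50 mg/kg/day. Of all 68 mouse names, 22 were higher and 46 lower. Over all 68 mouse names 37 had the same sign on slides 1 and 3, and the 11 all did, although the fit that chose them used these same slides.

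Among the higher ones, miR-720 is an array name whose sequence is now regarded as a transfer RNA fragment. It gave 11.20, 10.95 and 11.19 in vehicle and 11.56, 11.42, 11.51, 11.42 and 11.29 at 50 mg/kg/day. The groups did not overlap, and the log2 change was 0.23 ± 0.07 (SE, limma, adjusted P = 0.0880). It passed when vehicle array 3 was left out, at 0.30 (adjusted P = 0.0251), and without 25 mg/kg/day array 3, at 0.24 (adjusted P = 0.0354), and its sign turned, to -0.25, when arrays were only centred on their medians. miR-24, from the miR-23/27/24 clusters, had 0.11 ± 0.05 (adjusted P = 0.224) with no overlap. It was -0.17 with median centring, and it passed with the total gene signal, at 0.38 (adjusted P = 0.0201). Median centring moved the median change of all names from -0.02 to -0.25, so miR-24 stayed above that median and miR-720 fell to it.

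Among the lower ones, miR-148a, which is abundant in hepatocytes and limits DNA methyltransferase expression, gave 8.69, 8.59 and 8.69 in vehicle. At 50 mg/kg/day it gave 8.28, 8.47, 8.52, 8.51 and 8.48, below every vehicle array. The log2 change was -0.22 ± 0.07 (SE, limma, adjusted P = 0.0880), and it passed without 25 mg/kg/day array 3, at -0.23 (adjusted P = 0.0354). miR-199a-3p, a miRNA of stellate cells and fibroblasts, gave 6.57, 6.66 and 6.61 in vehicle and 6.42, 6.29, 6.47, 6.57 and 6.49 at 50 mg/kg/day, a log2 change of -0.16 ± 0.05 (adjusted P = 0.0880). Its array 4 at 50 mg/kg/day and vehicle array 1 were almost equal, so the groups only just separated. With the values the authors deposited, the change of miR-199a-3p was -0.23 (adjusted P = 0.0428) and that of miR-10a, a HOX-linked miRNA, was -0.17 (adjusted P = 0.0428), and both passed.

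miR-26b had the most negative change of all tested names, -0.29 ± 0.10 (SE, limma, adjusted P = 0.111). Its signal was 8.30, 7.39 and 7.40 in vehicle and 7.66, 7.77, 7.25, 7.22 and 7.31 at 50 mg/kg/day. Vehicle array 1 was far above all others, and the difference was -0.58 on slide 1 but -0.09 on slide 3. Without vehicle array 1 the change of miR-26b was -0.06. The other family member, miR-26a, had -0.13 ± 0.11 and did not overlap with vehicle with slide left in, but did with slide effects subtracted.

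The 4 remaining names were lower by similar, small amounts. miR-125b-5p, which targets the message of p53 in some species, had -0.16 ± 0.06 (SE, limma, adjusted P = 0.111). miR-322, the mouse form of miR-424 in the miR-15/16 seed family, had -0.16 ± 0.07 (adjusted P = 0.224). It passed without vehicle array 3, at -0.23 (adjusted P = 0.0251), and was -0.10 without vehicle array 2. The only tested probe of miR-322 was present on all vehicle arrays but on only 2 of the dosed arrays. Its signal on the remaining dosed arrays is thus only a bound, and these changes are not an exact fold of the RNA. Under the other ways of processing, the change of miR-322 ranged from -1.02 to -0.06. miR-7a had -0.15 ± 0.06 (adjusted P = 0.178), and miR-10a had -0.14 ± 0.06 (adjusted P = 0.241). Of these, only miR-7a separated the groups with slide left in. Leaving out vehicle array 1, the sole vehicle of slide 1, brought miR-7a to -0.08, miR-24 to 0.05 and miR-148a to -0.14.

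**Figure D4:**
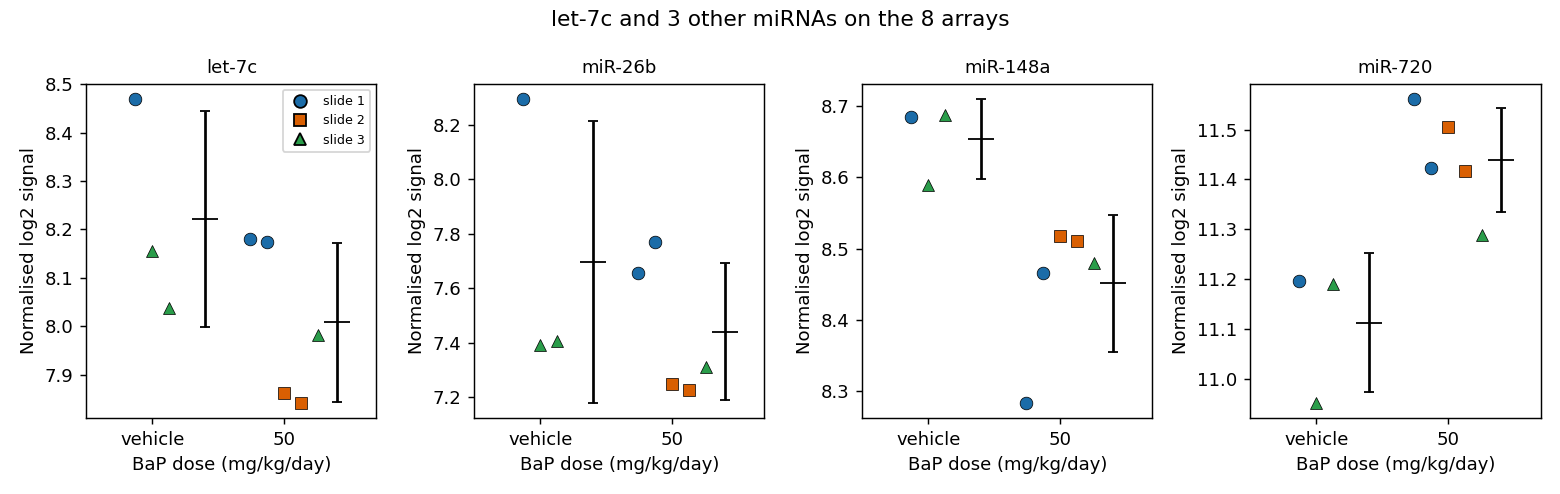
Normalised log2 signal (y axes) of let-7c, miR-26b, miR-148a and miR-720 on the 3 vehicle arrays and the 5 arrays at 50 mg/kg/day (x axis), with the slide as point shape and colour and the mean with its SD beside each group. let-7c and miR-26b are brighter on slide 1 in both groups, whereas miR-148a and miR-720 separate the groups without regard to slide.

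The other doses were set against the same 3 vehicle arrays, so their changes are not independent of those at 50 mg/kg/day and are given only side by side. At 25 and 75 mg/kg/day they were -0.08 and -0.27 for let-7c, -0.15 and -0.22 for miR-148a, and -0.13 and -0.31 for miR-26b. They were 0.17 and 0.16 for miR-720, -0.09 and -0.22 for miR-199a-3p, and 0.09 and 0.11 for miR-24. Between 50 and 75 mg/kg/day no name other than miR-34a passed, and let-7c differed by -0.06 ± 0.04 (SE, adjusted P = 0.936).

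**Figure D5:**
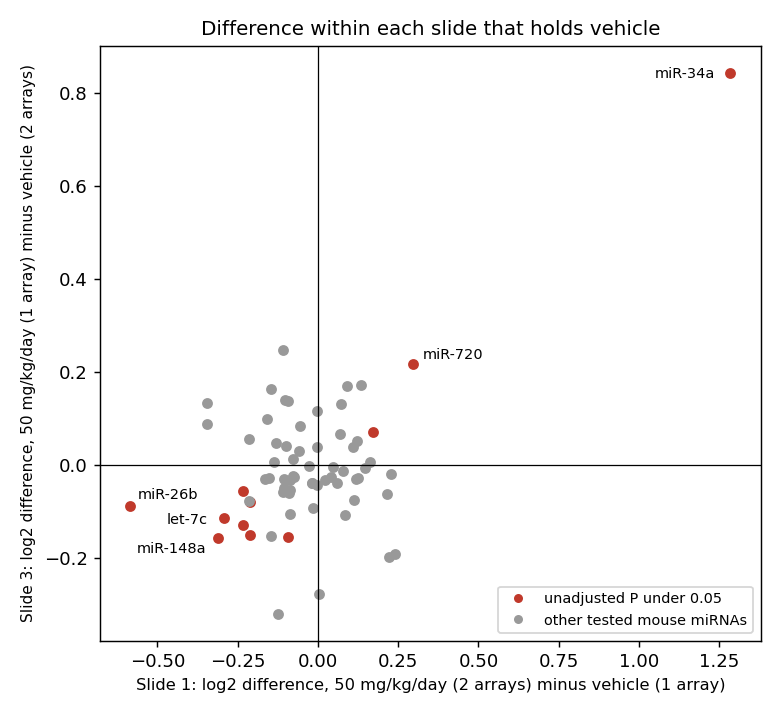
Log2 difference between 50 mg/kg/day and vehicle on slide 1 (x axis, 2 dosed arrays and 1 vehicle array) against that on slide 3 (y axis, 1 dosed array and 2 vehicle arrays) for the 68 tested mouse miRNAs; red points have an unadjusted P under 0.05. miR-34a lies at 1.29 and 0.84, apart from the rest, and miR-26b lies at -0.58 on slide 1 and -0.09 on slide 3.

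Of 19 names linked to p53 in general knowledge, 10 were tested, and miR-34a was the only one to pass as reported, or 1 of 10 against 2.9% of all names tested. Of the 10, 4 changes were positive and 6 negative, against 22 and 46 of all 68 mouse names. Their median was -0.02 against -0.03 over all mouse names. miR-192 and miR-194, induced by p53 in some cells and abundant in liver, had -0.01 ± 0.05 and 0.03 ± 0.09 (SE). miR-107 had 0.10 ± 0.06 and passed with the total gene signal, at 0.27 (limma, adjusted P = 0.0299). miR-22 had -0.11 ± 0.10, and the miR-29 members, which can raise p53 activity, lay between -0.03 and 0.10. The processing of miR-15a and miR-16 is promoted by p53, and they had -0.03 ± 0.07 and -0.06 ± 0.08. miR-143, miR-145, miR-215, miR-200c and miR-141 were not tested, being too dim.

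Besides miR-34a and let-7c, no member of the families that follow passed the test as reported. Their signs stand beside 22 positive and 46 negative changes over all 68 mouse names. The miR-15/16 family, which restrains cyclins, had 6 of 6 names tested, 3 positive and 3 negative, with a median of -0.01. Of these, miR-15b had 0.10 ± 0.05 (SE) and passed with the total gene signal, at 0.34 (limma, adjusted P = 0.0142). The miR-17-92 and miR-106b-25 clusters, which favour proliferation, had 5 of 9 names tested, with a median of -0.0026 and values from -0.06 for miR-25 to 0.10 for miR-106b. The miR-23/27/24 clusters had 5 of 5 tested, 3 positive, with a median of 0.03 that was below 0 in 2 of the 15 other ways of processing. The group of miR-10, miR-99, miR-100 and miR-125 names had 4 of 7 tested, all negative, with a median of -0.11 that turned to 0.05 with the total gene signal. The miR-26 pair had a median of -0.21 and stayed negative under all 15. The 5 names of miR-30 left 1 to test, miR-30a, at -0.01.

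Names that lie together in the genome were then set side by side. Of the RefSeq positions, 17 groups of 2 or 3 tested names lay on the same strand with at most 50 kb between neighbours. Of these, 6 had changes of one sign throughout, 4 of them negative, and the rest held both signs. Since 46 of all 68 mouse names were negative, a group of one sign is not by itself a result about neighbours. On chromosome 16 miR-99a, let-7c and miR-125b-5p, spanning 47.4 kb, had -0.08, -0.21 and -0.16. On chromosome 15 let-7c and let-7b, spanning 0.731 kb, had -0.21 and -0.13. Mature let-7c is encoded at both loci, and the array cannot tell them apart. On chromosome 8 miR-23a, miR-27a and miR-24 had 0.03, 0.08 and 0.11, and none of the 3 passed. These signs depended on the scaling, since miR-23a, miR-27a and miR-24 were negative with median centring and let-7b, miR-99a and miR-125b-5p positive with the total gene signal.

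The labelled tissue was checked against cell type markers, and none of these passed the test. The hepatocyte names miR-122, miR-192 and miR-194 were present on all 8 arrays, and the log2 of their summed signal was 13.5 to 13.6 in vehicle and 13.4 to 13.6 at 50 mg/kg/day. miR-122, the dominant hepatocyte miRNA, had -0.02 ± 0.10 (SE, limma, adjusted P = 0.920). Its arrays lay between 13.48 and 13.52 in vehicle and between 13.33 and 13.60 at 50 mg/kg/day, and the 95% confidence interval of its change was -0.24 to 0.20. The 2 erythroid names tested of 3, miR-144 and miR-451, had -0.03 ± 0.12 and 0.04 ± 0.30, and the interval of miR-451 was wide, from -0.61 to 0.69.

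For other cells of the liver few markers were measured. Of 6 leukocyte names only miR-223 was tested, at -0.02 ± 0.04 (SE), and miR-150, miR-155 and miR-142-5p were present on no array. Of 2 endothelial names miR-126-3p was tested, at -0.07 ± 0.06. Of 5 stellate and fibroblast names miR-199a-3p was tested, with the lower signal given above, while miR-214, miR-143 and miR-145 were present on no array. Of 5 biliary names none was tested, and miR-200c, miR-141 and miR-429 were present on no array. Among muscle and neuron names miR-1 was present on 1 array at 50 mg/kg/day, and the other 4 on none. In whole liver fewer cells of a type and less RNA per cell cannot be told apart, and the part of cell composition in the small changes was not tested.

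No name linked to liver injury and fibrosis passed the test. Of 10 names 6 were tested, with a median change of -0.03. miR-21, which rises in regenerating and fibrotic liver, had -0.12 ± 0.12 (SE). Its signal was 10.31 on the vehicle array of slide 1 and 10.27 and 10.36 on the dosed arrays there, against 8.58 to 9.03 on the other arrays. The slide difference of miR-21 was thus far larger than its difference between groups. miR-155 was present on no array.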

How the data were processed

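Per the file headers, the authors extracted 1-colour Agilent mouse miRNA arrays with Agilent Feature Extraction 10.7.3.1, and each deposited scanner file gives the linear intensity of every spot. The deposited table of 1 value per name, read as log2 signal without background subtraction because it tracked the scanner values, was an alternative only; how it was centred stays unknown. Here, the median signal without background subtraction was taken as log2 and normalised by cyclic loess (limma 3.58.1, R 4.3.3). Outlier spots (1.93% to 3.84% per array) were removed, spots were summarised by the median and probes by the mean. A probe was present when well above background in a share of 0.5 or more of its spots, and kept when present on at least 4 of 5, or 3 of 3, arrays of a group. limma was fitted to all 18 arrays with slide as a block, in place of the MAANOVA of the study. Tests were two-sided, with Benjamini-Hochberg adjustment over 69 names and a threshold of 0.05. The fit was tested on simulated data. Array numbers follow accession order and only name animals. Named miRNAs were miR-34a, its family, miR-122, those with an unadjusted P under 0.05, the 5 largest changes each way, the 10 brightest and tested members of the lists. The members and lists were chosen with earlier results of these data known. Alternatives were other scalings, background corrections, filters, blocks and summaries, and each array left out.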

Additional observations from a re-analysis of the deposited data

Results flagged for a closer look

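Over the 54 miRNAs named or listed, the 5 arrays at 50 mg/kg/day were checked for a value far from the others by Dixon's ratio of gap to range, and 3 exceeded the critical value of 0.71, where chance alone marks about 1 in 20. miR-148a was low on array 1, at 8.28 against 8.47 on the nearest array (ratio 0.778). miR-26a was low on the same array, at 6.46 against 6.56 (ratio 0.783). miR-98 was high on array 2, at 6.34 against 6.29 (ratio 0.764). Arrays 1 and 2 were both on slide 1, and these ratios used signals with slide left in. With the fitted slide effects subtracted, each gap was a smaller share of the range of the 5 arrays, though the gap of miR-26a itself was not smaller. miR-148a on array 1 was then 8.28 against 8.33 on the nearest array, with the highest at 8.47. miR-26a on array 1 was 6.46 against 6.58, with the highest at 6.71. miR-98 on array 2 was 6.34 against 6.32, with the lowest at 6.27. Array 1 had the fewest names detected of the 8 arrays, 79, and the part of this in these values was not tested.

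The name miR-466f-3p was among those too dim to be tested. The scanner software detected it on 0 of 3 vehicle arrays but on 4 of the 5 arrays at 50 mg/kg/day. It was the only one of 147 mouse names detected on any of the 8 arrays with such a split. Over all 18 arrays, which include those at the other doses, miR-466f-3p was detected on only 7. No level is given for it.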

How the results depend on the processing

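miR-34a at 50 mg/kg/day against vehicle kept its direction and its call in the 14 alternatives that tested it (0.95 to 3.59) and with each array left out (1.07 to 1.34). The count of names past the threshold, 2 as reported, was 1 with quantile normalisation, median centring, normexp, processed signal, no slide block, a random slide block, only the 8 arrays, no slide 2, no filter on presence, the brightest probe, and eBayes with trend and robust. It was 4 with the total gene signal, 0 with probes present on all arrays (limma, 8 at an unadjusted P under 0.05), 3 with the values the authors deposited, and 1 to 4 with each array left out. When each probe was tested, an alternative chosen after seeing the data, 3 of 112 probes passed, 2 of miR-34a and 1 of let-7c, so no further name was added. The 1 name past the threshold from 25 to 50 mg/kg/day became 0 without a slide block (limma, 3 unadjusted), without slide 2 (5), without the filter (37), with probes present on all arrays (3) and with eBayes with trend and robust (9), and was 0 to 1 with each array left out. In the same step miR-34a changed by 0.59 without the block, 0.68 without slide 2, 0.74 without the filter and 0.74 with trend and robust, with adjusted P of 0.261, 0.193, 0.267 and 0.0648, and by 0.62 to 0.90 with each array left out. From 50 to 75 mg/kg/day the count became 0 with the total gene signal (limma, 4 unadjusted), where miR-34a changed by 1.46 (adjusted P = 0.0597), and 0 with probes present on all arrays (1 unadjusted). With each probe tested, 2 probes passed in this step, a count of probes and not of names. In the same step miR-34a changed by 0.79 to 0.99 with each array left out.

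Median centring moved the median change of all 69 names to -0.25, the processed signal to 0.10 and the total gene signal to 0.13, and of 68 mouse names 3, 53 and 57 were then positive, against 22 as reported. Of the 14 names with an unadjusted P under 0.05, among the 5 largest rises or always named, 7 turned sign under an alternative other than leaving out an array: with median centring miR-24 (-0.17), miR-720 (-0.25), miR-106b (-0.036) and miR-15b (-0.15), with the total gene signal miR-10a (0.035) and miR-125b-5p (0.027). miR-122, the seventh, turned positive with the processed signal (0.084), total gene signal (0.18), deposited values (0.19), only the 8 arrays (0.014) and outlier spots kept (0.013), and ranged from -0.088 to 0.036 with each array left out, positive only without 50 mg/kg/day array 1. Of the 40 other names listed or bright, 39 turned sign under at least 1 of these alternatives, so their signs are not fixed by these data. The causes were not tested. No paired analysis was possible because the array numbers only name animals and pair no samples across groups. The 3 vehicle arrays, 1 of them alone on slide 1, and signals near background limit what could be detected.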
